A study of Mus musculus with 14 samples.

Results

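The p200 family, also called the Ifi200 or HIN-200 family, was followed here in irradiated mouse heart. Its 8 members, Ifi203, Ifi204, Ifi205, Ifi207, Ifi211, Ifi213, Mndal and Aim2, were taken by gene name from a table of 54532 genes, and each had 1 row. All 8 passed the low-count filter that left 16034 genes for testing. RNA of heart tissue was sequenced in 14 libraries, 1 from each mouse, to ask how early and late radiation injury of the heart differ. Which part of the heart was taken is not given in the sources used here, and hearts of the study also went to histology. The irradiated mice, male C57BL/6J aged 8 weeks, received 30 Gy of 60Co γ-rays to the front of the chest under pentobarbital, with the rest of the body behind lead. IRR_1d (n = 3) was taken 1 day later and IRR_6w (n = 4) 6 weeks later. Unirradiated mice of the same strain, sex and starting age were taken beside each, as Control_1d (n = 3) and Control_6w (n = 4). The sources used here do not say whether the controls were anesthetized.

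Most proteins of this family pair a pyrin domain, which binds other pyrin domains, with 1 or more HIN domains, which bind DNA. Many of the genes are induced by interferon and are known from macrophages and other cells of the myeloid line. Aim2 is the cytosolic DNA sensor that assembles an inflammasome with Pycard (ASC) and caspase-1, and Ifi204 (p204) is a DNA sensor of mouse cells tied to STING and interferon induction. Ifi205 and Ifi203 are p200 proteins of hematopoietic cells, and Mndal is named for its likeness to the human myeloid nuclear antigen MNDA. Ifi207, Ifi211 and Ifi213 are less well characterized.

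The members lie on mouse chromosome 1 (mm10), within a stretch that in the deposited coordinates begins with Aim2 at chr1:173350879-173466040 on the plus strand. Ifi213 (chr1:173566283-173599274), Ifi207 (chr1:173723427-173741747) and Ifi204 (chr1:173747293-173766943) follow on the minus strand. Beyond them on the same strand are Ifi211 (chr1:173896345-173913046), Ifi203 (chr1:173920407-173942672) and Ifi205 (chr1:174011998-174031810). The row of Mndal (chr1:173849126-173942491, minus strand) spans Ifi211 and nearly all of Ifi203. Its exons share 155 bases, or 4.27% of its exonic length, with Ifi203 and the gene model Gm38050, and the other 6 members share no exonic base with another gene. All 8 are annotated as protein coding.

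Bases before the start sites are shown because many genes of the family are known to respond to interferon. The letters GAAANNGAAA, the core of the interferon-stimulated response element, were searched on both strands of the 250 bases before each RefSeq start (GRCm38.p6, the assembly behind mm10). RefSeq entries covered 7 of the 8 members, all but Ifi204. The core stood upstream of 6 of these 7, all but Aim2, against 3.46% of 27025 genes with an entry. Counted by window, since Ifi203 and Mndal have 2 starts each, it stood in 7 of the 9 member windows, against 2.98% of 32851. The sequences below run 5′ to 3′ on the strand of the gene, capitals mark the core, and the window of Aim2 is the last 70 bases before its start.
Ifi213: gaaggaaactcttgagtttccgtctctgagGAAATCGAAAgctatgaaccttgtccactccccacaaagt
Ifi207: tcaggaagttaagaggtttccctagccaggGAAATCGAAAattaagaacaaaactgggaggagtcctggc
Ifi211: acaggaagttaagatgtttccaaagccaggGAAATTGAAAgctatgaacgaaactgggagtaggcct
Ifi205: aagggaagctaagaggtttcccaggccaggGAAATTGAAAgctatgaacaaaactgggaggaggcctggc
Ifi203: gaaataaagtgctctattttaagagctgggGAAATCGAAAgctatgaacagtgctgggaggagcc
Mndal: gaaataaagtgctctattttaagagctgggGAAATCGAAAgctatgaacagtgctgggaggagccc
Aim2: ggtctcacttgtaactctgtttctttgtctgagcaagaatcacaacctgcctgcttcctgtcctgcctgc

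These windows are chr1:173599306-173599375 (Ifi213), chr1:173741811-173741880 (Ifi207), chr1:173913047-173913113 (Ifi211), chr1:174031850-174031919 (Ifi205), chr1:173942493-173942557 (Ifi203) and chr1:173880188-173880253 (Mndal), all on the minus strand, and chr1:173420534-173420603 (Aim2) on the plus strand. Ifi213, Ifi207, Ifi203 and Mndal carried the core as GAAATCGAAA, while Ifi211 and Ifi205 carried GAAATTGAAA. The core began 73 bases before the start of Ifi213, 41 before Ifi207, 37 before Ifi211, 36 before Mndal and 35 before Ifi203, but 134 before Ifi205. The other window of Ifi203, at its deposited gene start (chr1:173942673-173942922), had no core, and that of Mndal carried TTTCTCTTTC, beginning at -54, on the opposite strand. The windows of Ifi203 and Mndal were identical over 65 aligned bases, although they lie at separate places. Ifi205 and Ifi211 were identical at 88.1% of 67 bases, whereas Ifi207 and Ifi213 were identical at 47.1% of 70. The letters TTCNNNGAA, the core of the gamma-activated sequence, were in none of these 7 members' upstream windows and in 7.02% of all windows. A match describes the letters and is not evidence of a bound site.

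Each library held between 13336746 and 16837265 counts, and the members together took between 1931 and 10527 of them. Cardiomyocyte genes such as Myh6 were detected in every library, and the 10 of the list summed to between 6343 and 43790 CPM (counts per 1000000 counted). The low value was in Control_6w replicate 3, where T cell genes summed to 2455 CPM and thymocyte genes to 2928 CPM, above every other library. Atrial genes summed to 3340 CPM in IRR_6w replicate 1 and 2028 CPM in IRR_1d replicate 3, and were at or below 389.1 CPM elsewhere. In IRR_6w replicate 1 the lung epithelium genes reached 501.0 CPM, while Control_6w replicate 3 had 39.2 and no other library more than 9.30. Brown fat genes summed to 1195 and 870.7 CPM in these 2 libraries and to at most 394.5 in the others. Control_6w replicate 3, IRR_6w replicate 1 and IRR_1d replicate 3 are called the libraries that stand apart. Germ cell genes, 3 of 7 tested, summed to 46.1, 33.4 and 46.8 CPM in Control_6w replicates 1, 2 and 3 and to at most 0.256 in any other library. Low counts were also missing unevenly. This was read from genes with a median of 2 to 5 CPM over the other libraries. Of these genes, 30.7% had 0 counts in Control_1d replicate 1, 21.6% in IRR_6w replicate 3 and 8.62% in IRR_6w replicate 4. The share was at most 1.98% in the rest. Nothing in the labels ties the mice of a group to separate litters or batches.

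In unirradiated hearts Ifi203 and Mndal were the most abundant members per length, and Ifi213 and Aim2 the least. In Control_6w the level was 14.01 ± 4.33 FPKM (SD, n = 4) for Ifi203 and 13.9 ± 2.99 for Mndal, a difference within their spread. FPKM here is the CPM divided by the deposited gene length in kilobases. Ifi207 followed at 6.74 ± 1.87, Ifi205 at 5.99 ± 2.67, Ifi211 at 4.37 ± 1.96 and Ifi204 at 3.16 ± 0.218 FPKM, and each of these neighbours lay within the larger SD of the pair. Aim2 stood at 1.23 ± 1.15 and Ifi213 at 0.433 ± 0.246 FPKM. Only the steps from Mndal to Ifi207 and from Ifi204 to Aim2 exceeded the larger SD of the 2 genes. In Control_1d Ifi203 at 11.9 ± 3.99 and Mndal at 11.8 ± 3.07 FPKM (SD, n = 3) were again first, but the middle order differed. Ifi205 (4.92 ± 2.92) stood before Ifi207 (3.79 ± 1.31), and Ifi204 (2.62 ± 0.345) before Ifi211 (1.63 ± 1.45).

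The order differed in IRR_6w. Ifi203 was still first, at 24.6 ± 12.6 FPKM (SD, n = 4), but Ifi207 at 19.0 ± 6.85, Ifi204 at 18.9 ± 5.87 and Mndal at 18.8 ± 5.29 FPKM could not be separated from each other or from it. Ifi211 stood at 11.9 ± 3.27, Ifi205 at 8.79 ± 1.57 and Ifi213 at 4.24 ± 2.51 FPKM. Aim2 was last, at 1.68 ± 1.13 FPKM. The mean of Ifi204 was below those of Ifi207 and Mndal in both control groups and level with them here. In IRR_1d it had 6.79 ± 4.82 FPKM (SD, n = 3), carried by 1 heart.

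**Figure D1:**
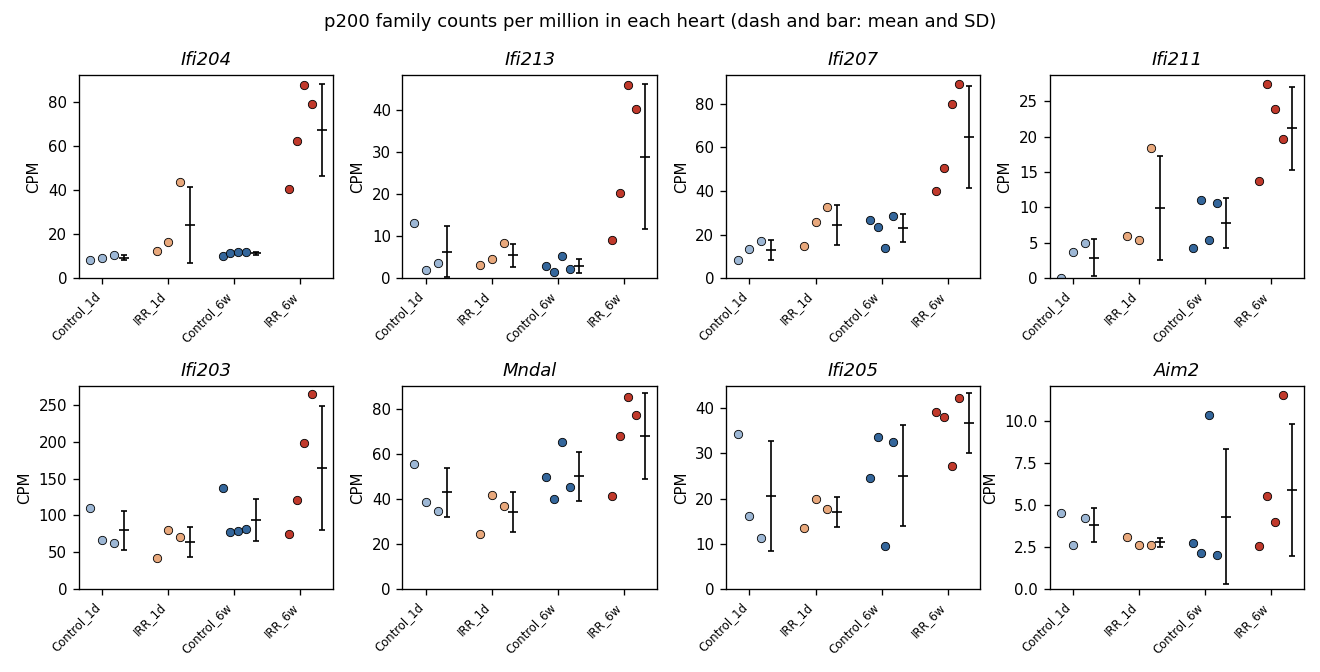
CPM (library totals) of the 8 members in each of the 14 hearts, by group on the x axis. Each point is 1 mouse, and the dash with its bar gives the mean and SD. The 4 IRR_6w hearts lie above all 4 Control_6w hearts for Ifi204, Ifi213, Ifi207 and Ifi211, while the groups overlap for Ifi203, Mndal, Ifi205 and Aim2.

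At 6 weeks 1 of the 8 members, Ifi204, was called higher in irradiated hearts, against 0.237% of all tested genes. A gene was called where edgeR's quasi-likelihood test gave a fold above 2 together with an adjusted p (Benjamini-Hochberg, all tested genes) below 0.05. All 8 fitted log2 fold changes were positive, with a median of 0.86 beside -0.09 over all tested genes. At an unadjusted p under 0.05 with a fold above 2, 3 members qualified (Ifi204, Ifi213 and Ifi207), against 3.69% of all genes. Every IRR_6w heart exceeded every Control_6w heart in CPM for 4 members (Ifi204, Ifi213, Ifi207 and Ifi211), against 6.63% of all genes. With TMM-scaled CPM this held for 3, since Ifi211 then overlapped, against 4.08% of all genes on that scale. A bulk tissue library cannot tell apart more cells that express a gene from more RNA of that gene per cell, and fewer cells from less RNA.

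Ifi204, the DNA sensor p204, had the narrowest spread of the members in Control_6w, relative to its mean. The Control_6w hearts had 10.2, 11.3, 11.8 and 11.8 CPM. The IRR_6w hearts had 40.3, 62.4, 87.8 and 79.0 CPM. The lowest irradiated heart was thus well above the highest control, and the means were 67.4 ± 20.9 and 11.3 ± 0.775 CPM (SD, n = 4 each). Both highest values were in IRR_6w replicates 3 and 4, the irradiated libraries with many missing low counts. The same held for Ifi207, Ifi203 and Mndal. The fitted rise was 5.04-fold (log2 2.33, SE 0.36, edgeR adjusted p = 0.0188). It was 2.46 on the log2 scale without the libraries that stand apart (adjusted p = 0.00225). The call was lost, with log2 values of 2.19 to 2.33, without Control_6w replicate 1 (edgeR adjusted p = 0.0860), Control_6w replicate 2 (0.115), IRR_6w replicate 3 (0.0762) or IRR_6w replicate 4 (0.0711). In each of those 4 fits 0 genes of the whole table were called. Without the 3 controls that hold germ cell genes, a choice made after the data were seen, the 1 control left is assumed to vary like the other groups. Ifi204 then had log2 2.13 (SE 0.67, edgeR adjusted p = 1.0), and again 0 genes of the table were called, with 288 at an unadjusted p under 0.05 and a fold above 2 or below 0.5.

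Ifi213 had the highest fitted fold change of the members, from a low base, and missed the adjusted threshold. Its Control_6w values were 2.94, 1.49, 5.33 and 2.09 CPM. Its IRR_6w values were 9.20, 20.3, 46.0 and 40.4 CPM. The groups did not overlap, but the irradiated hearts spread widely, and both highest values were in the libraries with many missing low counts. The fitted difference was log2 3.08 (SE 0.60, edgeR adjusted p = 0.0537). It was 2.77 without IRR_6w replicate 3 (adjusted p = 0.160) and 2.92 without IRR_6w replicate 4 (0.178). Ifi213 was called by DESeq2 on all libraries (adjusted p = 4.1e-05), which called 1.06% of its genes higher. It was also called by edgeR without the libraries that stand apart (log2 3.70, adjusted p = 0.0112), where 0.998% of genes were called higher. It was not called by limma-voom (adjusted p = 0.227).

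Ifi207 is the member whose start site lies next to that of Ifi204 among those described here. Control_6w hearts had 26.6, 23.3, 13.9 and 28.3 CPM. IRR_6w hearts had 40.0, 50.5, 79.8 and 89.3 CPM. The groups did not overlap, and the control mean was already above the 13.0 ± 4.48 CPM (SD, n = 3) of Control_1d. It differed by log2 1.21 in the fit (SE 0.39, edgeR adjusted p = 0.282) and was not called, and by 0.81 without the controls with germ cell genes.

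Ifi211 had 4.27, 11, 5.33 and 10.6 CPM in Control_6w. In IRR_6w it had 13.8, 27.4, 23.8 and 19.7 CPM. The lowest irradiated heart was only a little above the highest control. In the fit the difference was log2 1.18 (SE 0.83, edgeR adjusted p = 0.746), and 0.65 without the controls with germ cell genes. Its reads are the hardest to place, since 46.4% of the 150-base windows of its transcript occur unchanged in another gene of the stretch, 32.3% in Ifi205. The share was 12.6% for Ifi205, 6.77% for Ifi204, 1.61% for Mndal, 0.827% for Ifi203 and 0.223% for Ifi213. No such window was found for Ifi207 or Aim2. How reads that fit 2 genes were counted is not given in the sources used here.

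Ifi203 and Mndal, the abundant members, did not separate the groups. Control_6w hearts had 137.4, 77.9, 78.4 and 82.1 CPM of Ifi203. IRR_6w hearts had 74.5, 121.5, 198.6 and 265.5 CPM. IRR_6w replicate 1 lay below every control, and the other 3 irradiated hearts above at least 3 of the 4 controls. The fitted log2 difference of Ifi203 was 0.54 (SE 0.36, edgeR adjusted p = 0.729), and 0.27 to 0.78 with 1 library left out.

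Mndal had 50.1, 40.2, 65.4 and 45.3 CPM in Control_6w. It had 41.5, 68.3, 85.7 and 77.5 CPM in IRR_6w. Again replicate 1 was the low irradiated heart. Mndal differed by log2 0.22 in the fit (SE 0.26, edgeR adjusted p = 0.859), and by 0.098 to 0.40 with 1 library left out. With both genes summed into 1, chosen after the coordinates were seen, it was 0.44 (SE 0.32, edgeR adjusted p = 0.755).

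Ifi205 had 24.5, 33.6, 9.41 and 32.5 CPM in Control_6w. In IRR_6w it had 39.2, 38.0, 27.3 and 42.4 CPM. The only overlap came from IRR_6w replicate 3, and the lowest control was the library with thymocyte genes. Ifi205 differed by log2 0.26 in the fit (SE 0.40, edgeR adjusted p = 0.890), by -0.04 without Control_6w replicate 3 and by -0.18 without the controls with germ cell genes.

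Aim2, the inflammasome sensor, had the lowest median count of the members over the 14 libraries, 44, with 30 to 194 per library. Control_6w hearts had 2.72, 2.13, 10.3 and 2.03 CPM. IRR_6w hearts had 2.57, 5.50, 3.97 and 11.5 CPM. The highest control was again the library with thymocyte genes. The fitted log2 difference was 0.29 (SE 0.59, edgeR adjusted p = 0.922). It was 1.27 without the libraries that stand apart (adjusted p = 0.468), -0.19 without IRR_6w replicate 4 and 1.14 without the controls with germ cell genes.

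At 1 day 0 of the 8 members were called, against 0.0249% of all tested genes called higher. DESeq2 on all libraries and limma-voom also called 0. At an unadjusted p under 0.05 with a fold above 2, edgeR gave 1 member, Ifi204, against 1.56% of all genes. Of the fitted values 3 were positive and 5 negative, with a median of -0.19 beside 0.06 over all genes. The adjusted p was 1.0 for every member in edgeR. Every IRR_1d heart exceeded every Control_1d heart in CPM for 2 members, Ifi204 and Ifi211, against 7.28% of all genes. With TMM-scaled CPM the same 2 stood higher, against 6.52% of all genes. On that scale Aim2 was lower in every irradiated heart, at 2.51 to 3.26 against 3.62 to 4.85, as were 4.14% of all genes, while in CPM it overlapped.

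Ifi204 had 8.09, 9.36 and 10.5 CPM in Control_1d. It had 12.4, 16.3 and 43.9 CPM in IRR_1d. The groups did not overlap, but 1 heart, IRR_1d replicate 3, was far above the other two. In the fit it differed by log2 1.22 (SE 0.40, edgeR adjusted p = 1.0), and by 0.62 without that heart. The same heart is a library that stands apart, with monocyte genes at 512.0 CPM beside 120.3 and 170.7 in the other two, of which Fn1, a matrix gene that fibroblasts also make, gave 424.5, 102.8 and 147.8. Its fibroblast sum was also highest, at 5917 CPM beside 2102 and 2363. The part of these in the result was not tested.

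Ifi211 had 0, 3.73 and 4.97 CPM in Control_1d, where the 0 fell in the library with the most missing low counts and 3 counts would be 0.208 CPM. It had 5.97, 5.42 and 18.3 CPM in IRR_1d. The lowest irradiated heart was again close to the highest control. The fitted log2 difference was 1.5 (SE 0.97) in edgeR and 3.49 in limma-voom (adjusted p = 0.925). In edgeR it was 0.91 without Control_1d replicate 1 and 0.85 without IRR_1d replicate 3. Ifi207 overlapped at 8.23, 13.5 and 17.1 against 14.6, 25.9 and 32.9 CPM, with a log2 difference of 0.79 (SE 0.45), and 0.46 without Control_1d replicate 1.

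Ifi213 did not share this direction at 1 day. Its values were 13.2, 2.05 and 3.56 CPM in Control_1d and 3.20, 4.66 and 8.47 CPM in IRR_1d. The fitted log2 difference was -0.14 (SE 0.65), set by Control_1d replicate 1, without which it was 0.73. Ifi203, Mndal, Ifi205 and Aim2 had fitted log2 differences of -0.33, -0.34, -0.25 and -0.48, each below 1 SE or little above it. Their group means in CPM were 79.9 and 64.0 for Ifi203 and 43.0 and 34.5 for Mndal, controls first. They were 20.6 and 17.0 for Ifi205 and 3.79 and 2.78 for Aim2.

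The unirradiated groups were compared across time as a background for the irradiated ones. In Control_6w against Control_1d 0 members were called in edgeR, against 0.0% of all genes called higher. At an unadjusted p under 0.05 with a fold above 2 or below 0.5, edgeR gave 0 members, against 3.75% of all genes. DESeq2 on all libraries called 28 genes of the table, 0 of them members. Every member overlapped between the control groups in CPM, where 6.8% of all genes did not overlap. Ifi204 differed by log2 0.09 (SE 0.38). Ifi213 differed by -1.12 (SE 0.61) and Ifi211 by 1.18 (SE 0.92), both with Control_1d replicate 1 at the end of its group's range. Without that library Ifi213 had -0.26 and Ifi211 0.58. In limma-voom Ifi211 had 3.11 (adjusted p = 0.759).

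In IRR_6w against IRR_1d all 8 fitted values were positive, with a median of 0.92 beside -0.02 over all genes, and 0 were called, against 0.0312% of all genes. At an unadjusted p under 0.05 with a fold above 2, edgeR gave 3 members (Ifi204, Ifi207 and Ifi213), against 3.06% of all genes. Ifi213 differed by log2 2.10 (SE 0.64, edgeR adjusted p = 0.556), Ifi204 by 1.20 (SE 0.38, 0.580) and Ifi207 by 1.07 (SE 0.42, 0.783). Every IRR_6w heart exceeded every IRR_1d heart in CPM for Ifi205, Ifi207 and Ifi213, against 10.7% of all genes, and with TMM-scaled CPM only for Ifi207, against 5.48%. Ifi213 was called by DESeq2 on those 2 groups alone (adjusted p = 0.0136), which called 1.27% of its genes higher. Ifi204 was called by edgeR without the libraries that stand apart (log2 1.98, adjusted p = 0.0202), where 0.565% of genes were called higher.

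Whether irradiation acted differently at the 2 times was tested directly, as the difference of the 2 irradiation effects. No member passed in edgeR, as for all genes (0.0%). At an unadjusted p under 0.05 with a fold above 2 or below 0.5, edgeR gave 1 member, Ifi213, against 2.86% of all genes. Its difference was log2 3.22 (SE 0.88, adjusted p = 0.810 in edgeR and 0.0894 in DESeq2), and 2.35 without Control_1d replicate 1 (edgeR adjusted p = 1.0). For Ifi204 it was 1.11 (SE 0.53, edgeR adjusted p = 0.990). It was 1.71 without IRR_1d replicate 3 (edgeR adjusted p = 0.823) and 1.84 without the libraries that stand apart (0.172). The other 5 positive values ran from 0.42 for Ifi207 to 0.87 for Ifi203. With 1 library left out Ifi207 ran from 0.13 to 0.75, Ifi205 from 0.18 to 0.76 and Aim2 from 0.29 to 1.51. Without the controls with germ cell genes Ifi207 had 0.0061, Ifi205 0.041 and Aim2 1.60. Ifi211 had -0.33 (SE 1.25), and -2.20 in limma-voom (adjusted p = 0.736). The test did not separate the effects of the 2 times for any member.

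The neighbouring genes of the stretch were read for context. A further 6 p200 genes had rows, and Ifi202b, at most 0.957 CPM in any library, was not tested. None of the other 5 was called. At 6 weeks Ifi206 had a fitted log2 difference of 2.0 (SE 0.76, edgeR adjusted p = 0.414), Ifi208 1.59 (SE 0.51, 0.282), Ifi209 1.59 (SE 0.76, 0.580) and Ifi214 2.49 (SE 1.60, 0.715). The pseudogene Ifi203-ps had -0.22 (SE 0.44, 0.920). Ifi209 reached 46.0 CPM in Control_6w replicate 3, against at most 14.04 CPM in the other controls. Without the libraries that stand apart, Ifi206, Ifi208 and Ifi209 were called together with Ifi204 and Ifi213, among 180 genes called of the 15933 tested there.

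Set in order along the chromosome, the 7 genes from Ifi206 to Ifi204 had fitted log2 differences of 1.21 to 3.08 at 6 weeks. Aim2 before them had 0.29, and Ifi203-ps, Mndal, Ifi203 and Ifi205 beyond them had -0.22 to 0.54, with Ifi211 at 1.18 among these. This order was noticed after the values were seen and was not tested. At 1 day the same 7 genes ran from -3.98 for Ifi214, which had at most 4.15 CPM in any library, to 1.22 for Ifi204. The value of Ifi214 rested on Control_1d replicate 1, which had 60 counts, beside 0 and 2 in the other controls and 1, 2 and 0 in IRR_1d.

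**Figure D2:**
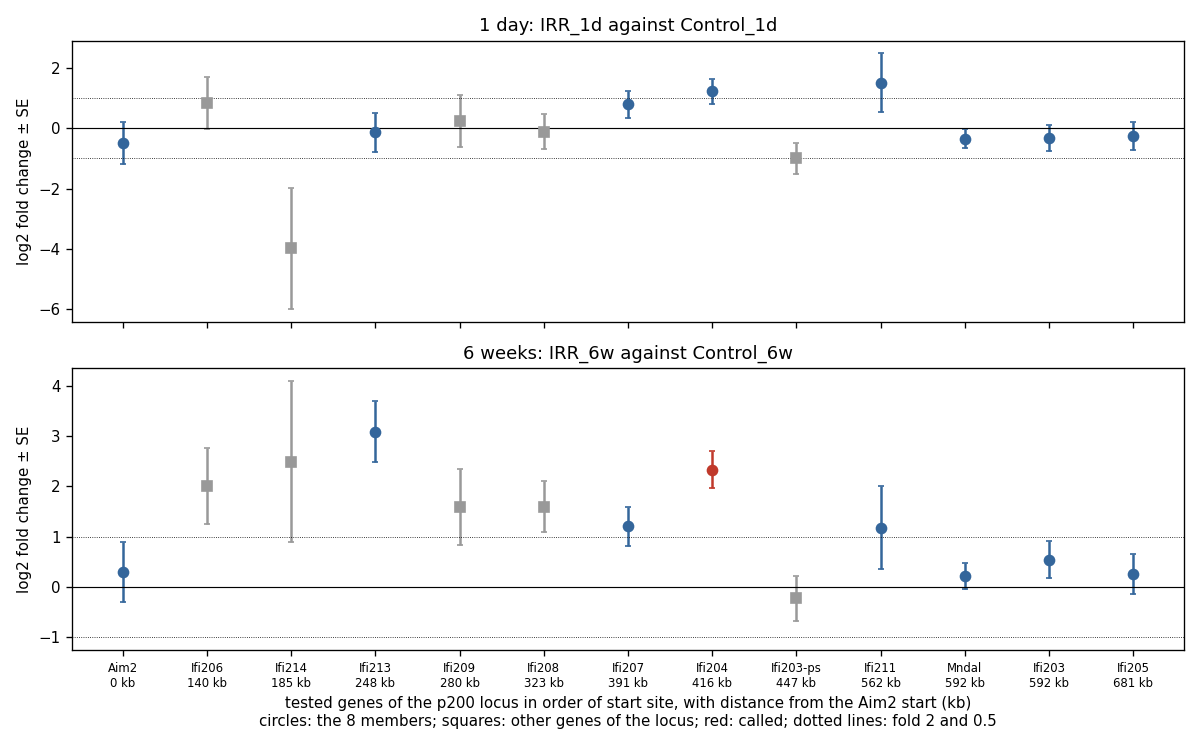
Fitted log2 fold change with its SE (edgeR) of the 13 tested p200 genes, at 1 day in the upper panel and 6 weeks in the lower, ordered along the x axis by start site with the distance from the Aim2 start in kb. Circles are the 8 members, squares the other 5 genes, and red marks the only called gene, Ifi204 at 6 weeks. At 6 weeks the genes from Ifi206 to Ifi204 lie at 1.21 or above. Beyond them Ifi211 lies at 1.18, and Ifi203-ps, Mndal, Ifi203 and Ifi205 at 0.54 or below.

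The makeup of the family's counts needs no scaling between libraries. Ifi204 gave 5.23 ± 0.885% of the summed member counts in Control_6w and 15.0 ± 1.55% in IRR_6w (SD, n = 4 each). Ifi213 gave 1.38 ± 0.872% and 5.87 ± 2.03%. Ifi203 gave 42.3 ± 7.20% and 34.4 ± 6.17%, so it stayed the main source of counts. The 1-day shares of Ifi204 were 5.56 ± 1.89% in Control_1d and 12.6 ± 5.66% in IRR_1d (SD, n = 3 each). Single IRR_1d hearts ranged from 8.26 to 19.0%, against 12.6 to 15.9% in IRR_6w. The highest was IRR_1d replicate 3, a library that stands apart, with 637 of 3358 member counts. Ifi203 gave 44.3 ± 2.64% in Control_1d and 35.4 ± 5.19% in IRR_1d, and Ifi213 gave 3.12 ± 2.23% and 2.91 ± 0.675%.

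Per count of Ifi203 in the same heart, Ifi204 had 0.0740, 0.145, 0.150 and 0.144 counts in Control_6w. In IRR_6w it had 0.541, 0.513, 0.442 and 0.298. The lowest irradiated ratio was about that of IRR_1d replicate 1 and above every control of either time. The 1-day ratios were 0.0731, 0.141 and 0.169 in controls and 0.2997, 0.203 and 0.623 after irradiation. Ifi213 per Ifi203 count averaged 0.0335 ± 0.0231 in Control_6w and 0.169 ± 0.0459 in IRR_6w. It averaged 0.0690 ± 0.0455 in Control_1d and 0.0852 ± 0.0320 in IRR_1d (SD, n = 3 each), which overlapped. These ratios were formed after the fold changes were seen and carry no test.

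**Figure D3:**
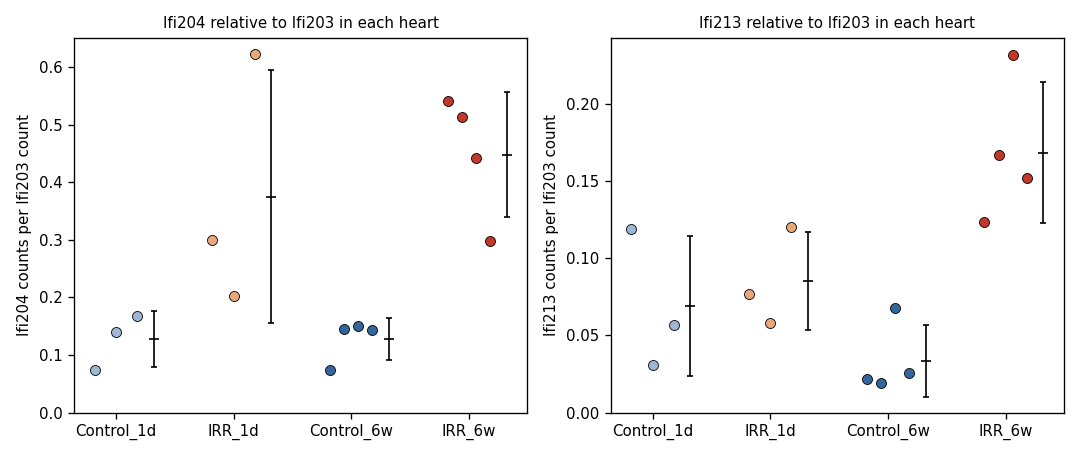
Counts of Ifi204 (left) and Ifi213 (right) per count of Ifi203 in each heart, by group on the x axis. Points are mice, and the dash and bar give the mean and SD. Ifi204 lies between 0.298 and 0.541 in IRR_6w and at or below 0.150 in Control_6w, and the 1-day groups overlap for Ifi213.

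Genes that act with the family were read from lists, and their medians stand beside that of all tested genes. Of 34 interferon-stimulated genes outside the p200 stretch, all had positive fitted values at 6 weeks, 6 were called, against 0.237% of all genes, and the median was log2 1.90. At an unadjusted p under 0.05 with a fold above 2 there were 31 of the 34, against 3.69% of all genes. At 1 day 31 were positive and 0 were called, and the median was 0.96. By the unadjusted rule 8 were higher at 1 day, against 1.56% of all genes, and 1 was lower. At 1 day IRR_1d replicate 3 had Ifit3 at 241.7 CPM beside 38.8 and 27.5 in the other two. Without it the 1-day median was 0.30, with 3 higher and 2 lower by the unadjusted rule. The 6-week calls were 11 without that library, where 54 of 16920 genes were called higher. They were 22 without the libraries that stand apart, where 159 of 15933 genes were called higher. The medians were 1.90 and 2.05 in these fits, and 1.89 without the controls with germ cell genes. Oas1a, which makes the RNase L activator, rose by log2 3.03 at 6 weeks (edgeR adjusted p = 0.0250), and the antiviral gene Rsad2 by 2.25 (0.0335). Ifit3, an RNA-binding antiviral gene, rose by 3.39 (0.0400). Of the interferon, receptor and signalling genes 14 were tested and 11 were positive at 6 weeks. By the unadjusted rule 4 were higher, against 3.69% of all genes, and 1 was called, against 0.237%. This was Irf7, the regulator of type I interferon genes, at 10.6 ± 2.08 CPM in Control_6w and 180.3 ± 84.2 in IRR_6w (SD, n = 4 each), a log2 rise of 3.85 (edgeR adjusted p = 0.0188). Stat2 and Irf9, which join in the factor that binds the response element, had 1.02 (0.158) and 1.14 (0.170).

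Of 13 tested inflammasome partners of Aim2 10 were positive at 6 weeks and 0 were called. Their median was 0.57, beside -0.09 over all genes. By the unadjusted rule 1 was higher, against 3.69% of all genes. Pycard, the adaptor of Aim2, had 52.5 CPM in Control_6w replicate 3, the library with thymocyte genes, and 2.71 to 6.40 CPM in the other 3 controls, against 4.72 to 9.27 CPM in IRR_6w. Its fitted log2 value of -1.31 (edgeR adjusted p = 0.631) includes that library. Il18, a cytokine that caspase-1 matures, had 1.58 (0.697), and the nucleic acid sensor Zbp1 had 2.23 (0.563). All 8 other inflammasome sensors had positive values, with 0 called and a median of 1.57. By the unadjusted rule 2 were higher, against the same 3.69%. Naip2, a NAIP sensor of bacterial proteins, had 1.99 (adjusted p = 0.104), Naip5 1.65 (0.379) and Nlrp1a 2.31 (0.697).

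In the cGAS-STING list, a route from cytosolic DNA to interferon, 7 of 12 tested genes were positive at 6 weeks. The median was 0.19 and 0 were called. Of these 12, 1 had an unadjusted p under 0.05 and a fold above 2, against 3.69% of all genes. Tmem173, which encodes STING, had 9.10 ± 2.12 CPM in Control_6w and 16.1 ± 4.05 in IRR_6w (log2 0.59, edgeR adjusted p = 0.655). Adar, an RNA-editing enzyme, had 1.16 (0.209), and the nucleotide hydrolase Samhd1 had 0.92 (0.173). The p53 targets had a median of 1.92 at 1 day and 0.83 at 6 weeks over 18 genes, with 1 called at 1 day, against 0.0249% of all genes, and 2 at 6 weeks, against 0.237%. By the unadjusted rule 11 were higher at 1 day, against 1.56% of all genes, and 9 at 6 weeks, against 3.69%. At 6 weeks 1 was lower. The change in effect from 1 day to 6 weeks was negative for 14 of the 18 and positive for 4, with a median of -0.64 beside -0.15 over all genes, and 0 were called. Eda2r, a TNF receptor family gene induced by p53, rose by 3.48 at 6 weeks (adjusted p = 0.0188), Zmat3 by 2.10 (0.0252), and Tnfrsf10b had 2.09 (0.0597). These 3, named for their small p at 6 weeks, had 2.93, 1.73 and 0.31 at 1 day, none called by edgeR, and so are among the 4. The median of all genes was 0.06 at 1 day and -0.09 at 6 weeks.

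**Figure D4:**
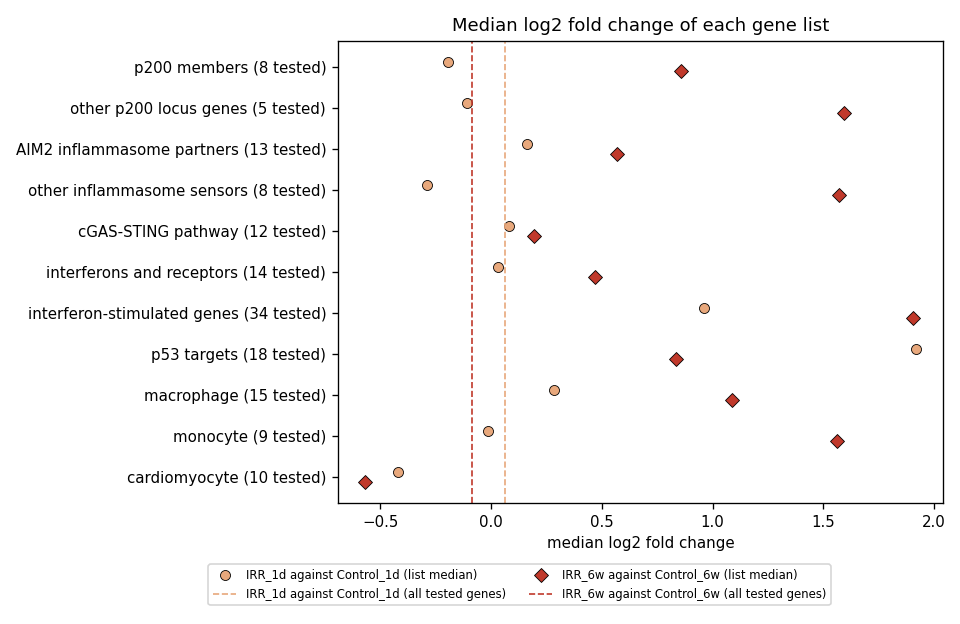
Median fitted log2 fold change of each gene list on the x axis, at 1 day (circles) and 6 weeks (diamonds), with dashed lines for the medians of all tested genes. The p200 members lie at -0.19 and 0.86, the interferon-stimulated genes at 0.96 and 1.90, and the p53 targets at 1.92 and 0.83.

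Markers of macrophages and monocytes, cells known to express the family, had higher sums in the IRR_6w hearts. Macrophage markers (15 genes) summed to between 398.8 and 803.7 CPM in Control_6w and between 1577 and 2103 CPM in IRR_6w, with 13 of 15 fitted values positive, 0 called, 8 at an unadjusted p under 0.05 and a fold above 2, and a median of 1.09. Of 9 monocyte markers 8 were positive, with a median of 1.56. Called were 2 (Fn1 and Ccr2), against 0.237% of all genes, and 5 were higher by the unadjusted rule, against 3.69%. The 9 markers summed to 104.2 to 221.8 CPM in Control_6w and 506.4 to 1060 CPM in IRR_6w. Fn1, also made by fibroblasts, gave 34.3 to 81.8% of that sum in Control_6w and 73.8 to 85.4% in IRR_6w. The other 8 monocyte markers summed to 24.0 to 145.7 CPM in Control_6w, the highest in replicate 3, and 118.0 to 247.0 CPM in IRR_6w, so the groups then overlapped. At 1 day the macrophage sums overlapped, 535.7 to 1089 CPM in controls and 714.6 to 991.0 CPM after irradiation, while monocyte sums were 84.2 to 152.9 and 120.3 to 512.0 CPM, or 21.6 to 65.2 and 17.4 to 87.5 CPM without Fn1. Fibroblast markers (8 genes) also did not overlap at 6 weeks, with 1212 to 2167 CPM in controls and 2685 to 4751 CPM in irradiated hearts, 7 positive, 0 called, 4 at an unadjusted p under 0.05 and a fold above 2, and a median of 1.23. Their 1-day sums overlapped, at 1759 to 3194 and 2102 to 5917 CPM. Endothelial markers (8 genes) summed to 723.0 to 1813 CPM in Control_6w and 1808 to 2230 CPM in IRR_6w, with 5 positive, 0 called and a median of 0.20. Cardiomyocyte genes (10) summed to 6343 to 43790 CPM in Control_6w and 10550 to 35440 CPM in IRR_6w, with 9 of 10 fitted values negative, 0 called and a median of -0.57 beside -0.09 over all genes. The part of any of these cells in the levels of Ifi204 and Ifi213 was not tested.

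Other blood cell lists were low or uneven at 6 weeks. Dendritic cell genes (7) summed to 34.6 to 67.0 CPM in controls and 39.3 to 78.1 CPM in irradiated hearts. Neutrophil genes (8) summed to 4.75 to 17.9 and 13.5 to 73.3 CPM, and the defining markers Ly6g, Mpo and Elane were each at 0 counts in 11 of 14 libraries. B cell genes (8) summed to 16.0 to 431.4 and 38.9 to 748.2 CPM. T cell genes (9) summed to 9.79 to 31.7 CPM in the controls other than replicate 3, which had 2455, and to 24.5 to 47.7 CPM in IRR_6w. Thymocyte genes (7) summed to 4.47 to 39.4 CPM in those controls, 2928 in replicate 3 and 3.30 to 82.0 CPM in IRR_6w, with Rag2 at 0 counts in 10 of 14 libraries and Ptcra in 12.

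The members were not equally alike across the 14 libraries. On log2(CPM + 1), Pearson's r was 0.902 for Ifi204 with Ifi207, 0.884 for Ifi203 with Mndal, 0.862 for Ifi207 with Ifi211 and 0.838 for Ifi204 with Ifi213. It was 0.452 for Ifi204 with Ifi205, and -0.07 for Ifi205 with Aim2. Taken on deviations from the group means, Ifi213 was most like Mndal (0.876) and Ifi203 (0.756), and Ifi204 with Ifi207 kept 0.687. The points share the groups and the libraries' depth, so these values are descriptions. Outside the stretch, at the pseudocount of 1, the tested genes most like Ifi204 were Gm12250 (0.974), an interferon-inducible GTPase gene, Irf7 (0.960) and Tlr13 (0.954), the sensor of bacterial ribosomal RNA. At a pseudocount of 0.1 Ddx58 (0.952) took the place of Gm12250, and at 5 Ttc9 (0.963) that of Tlr13. Those most like the summed members at 1 were Ptpn12 (0.961), Litaf (0.956), Gbp6 (0.948), Tnfrsf23 (0.939) and Gm36161 (0.937). At 5 Cflar (0.934) and Prkx (0.934) stood in place of the last 2.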

How the data were processed

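RNA-seq counts per gene in 14 heart libraries were used as the authors deposited them: whole-number counts for 54532 genes, with coordinates and gene lengths. Per the study's methods, reads of 150 bases were checked with FastQC 0.11.8, trimmed with Trim Galore 0.6.1, aligned with STAR 2.5.0a to mm10 and counted with HTSeq. The counting mode, strandedness and annotation release are not given in the sources used here. CPM and FPKM were computed from the counts, library totals and deposited lengths.

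All 14 libraries were fitted in 4 groups with edgeR 4.0.16 (R 4.3.3) after filterByExpr and TMM scaling, with quasi-likelihood tests. Settings tried were DESeq2 1.42.0, limma-voom (limma 3.58.1), other scalings, filters and libraries left out. The tests were tried on simulated counts first. Each p-value measures the spread between mice.

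The members and lists were chosen with earlier results of these data known. Named were every member, the other p200 genes with a row, the 3 genes of each further list with the smallest p at 6 weeks, summed marker lists, and the genes most correlated with the summed members (5) and with Ifi204 (3). Lists were matched by symbol, and promoters came from RefSeq (GRCm38.p6).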

Additional observations from a re-analysis of the deposited data

Results flagged for a closer look

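In groups of 4 hearts, a library was singled out when its gap to the nearest other exceeded 0.829 of the group's range. Of 16 such groups (8 members at 6 weeks, with and without irradiation) 2 were singled out, and chance does so in about 1 of 20. Ifi203 stood at 137.4 CPM in Control_6w replicate 1, with a gap of 0.930 of the range, above 3 controls between 77.9 and 82.1 CPM. Aim2 stood at 10.3 CPM in Control_6w replicate 3, with a gap of 0.917 of the range, in the library where thymocyte genes summed to 2928 CPM. The part of those cells in the value was not tested.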

How the results depend on the processing

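Ifi204 at 6 weeks was called under all 13 settings that kept every library of the compared groups or left out the libraries that stand apart. Some of these fitted the 2 groups alone, and some used an unadjusted p in place of the adjusted one. The log2 values of Ifi204 ran from 2.25 to 2.58. Leaving out 1 library in turn, Ifi204 was called in 10 of 14 fits (log2 2.19 to 2.52, edgeR adjusted p from 0.00629 to 0.115). The count of members called at 6 weeks, 1 in the report, was 2 with DESeq2 on all libraries or on the 2 groups, library totals in place of TMM, no low-count filter, robust dispersion, or without the libraries that stand apart, the added member being Ifi213 each time. It was 3 at an unadjusted p in edgeR, where 871 of 16034 genes passed in either direction. At an unadjusted p in DESeq2 it was 4, where 1133 of 26881 did. With 1 library left out it was between 0 and 2. Without the 3 controls that hold germ cell genes it was 0, with Ifi204 at log2 2.13 and Ifi205 at -0.18. For IRR_6w against IRR_1d the count of 0 became 1 with DESeq2 on the 2 groups and without the libraries that stand apart. At an unadjusted p it became 3 in either tool, where 617 of 16034 genes passed in edgeR and 1090 of 26686 in DESeq2. By the same rule it became 1 at 1 day, with 358 of 16034 genes passing in edgeR and 778 of 25110 in DESeq2. For the change in effect it became 1 at an unadjusted p in edgeR, with 458 of 16034 genes passing. Over all genes the count at 6 weeks was 41. It was 344 with DESeq2 on all libraries, 358 with DESeq2 on the 2 groups and 18 with limma-voom. With library totals it was 83, with no low-count filter 138 and with robust dispersion 44. Without the libraries that stand apart it was 180, and 0 to 98 with 1 library left out. Library totals moved the median of all genes at 6 weeks from -0.09 to 0.14, and the 8 members kept their positive sign.

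Directions that turned belonged to members with small fitted values. At 6 weeks Ifi205 had -0.066 without the libraries that stand apart and -0.038 to 0.44 with 1 library left out, and Aim2 -0.19 to 1.03. At 1 day Ifi205 ran from -0.50 to 0.085 and Ifi213 from -0.47 to 0.73. Between the control groups Ifi203 ran from -0.11 to 0.26, Ifi204 from -0.13 to 0.24, Mndal from -0.017 to 0.17 and Aim2 from -0.77 to 0.19, with Aim2 at 0.18 under library totals. The change in effect of Ifi211 was 0.29 without the libraries that stand apart and ran from -0.87 to 0.33. The cause was not tested. Same-numbered replicates are different mice and did not deviate together (r from -0.364 to 0.371 over 7 pairs), and with the number as a replicate block 1 member, Ifi204, was called at 6 weeks (log2 2.25). The FPKM of Ifi204 in Control_1d moved from 2.62 to 3.02 with TMM-scaled totals. At a pseudocount of 0.1, r of Ifi211 with Ifi204 was 0.674 and with Ifi205 0.114. Aim2 and Ifi213 had as few as 30 and 21 counts in a library, and the part of depth in their spread was not tested. The 0 counts of Ifi211 lie in Control_1d replicate 1, whose total of 14455992 counts is ordinary and where 30.7% of genes at 2 to 5 CPM were missing.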
